A study of Mus musculus with 23 samples.

Results

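The comparison described here set the jejunum of Cpa3Cre/+ mice against that of Cpa3+/+ mice after 1 day of oral allergen challenge. It was made of the libraries whose titles give challenge day 1, which are 5 of the 23 RNA-sequencing libraries of the series. The Cpa3Cre/+ group held 2 libraries, replicate 1 from a female and replicate 2 from a male. The Cpa3+/+ group held 3 libraries, all from females. All mice of both groups had been immunized intraperitoneally with 25 µg ovalbumin and 2 mg alum on days 0 and 14. From day 20 they were offered 2 bottles, 1 of plain water and 1 with 20% egg white and 8% sugar, and tissue was taken on day 1 of this choice. Whole jejunum was used after fat and Peyer's patches had been removed. The labels gave neither the ages of the mice nor the amounts drunk, and did not say whether libraries of the same sex and group came from separate animals. The spread behind the p-values is that between libraries, and may in part be technical. The other 18 libraries were naive, immunized, or at challenge day 3 or 5, in both genotypes.

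Mast cells are tissue-resident immune cells that carry IgE on the high-affinity receptor FcεRI and release proteases, histamine and lipid mediators when an allergen crosslinks it. In the mouse gut, mucosal mast cells in the epithelium contain the chymases Mcpt1 and Mcpt2, whereas connective tissue mast cells in the submucosa contain Cpa3 (carboxypeptidase A3), Mcpt4 and tryptases. In Cpa3Cre/+ mice, Cre recombinase is expressed from 1 allele of Cpa3, and the series' design text calls these mice mast cell-deficient. The other allele is intact, and Cre is expressed in the cells that use the Cpa3 promoter, which include basophils. Mice with Cre but with normal mast cells were not analysed here, so an effect of Cre itself and an effect of the missing cells cannot be told apart.

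Total counts, in M (mega), were 16.14 and 12.13 in the Cpa3Cre/+ libraries, against 14.3, 12.77 and 13.96 in the Cpa3+/+ libraries. Levels are given as CPM, the count of a gene relative to its library's total after scaling with TMM factors, in the order of the replicates. Of the 5 libraries, 2 differed from the others in ways that bear on every result. Cpa3+/+ replicate 2 held 238 genes more than 2-fold above, and 236 genes more than 2-fold below, their level in every other library of the series. The median of the other 22 libraries was 3 and 0 such genes, and 1 of them, Cpa3Cre/+ naive replicate 1, held 328 and 133. The closest day 1 library of Cpa3+/+ replicate 2 by Spearman correlation over genes stood at 0.9538, against 0.9835 to 0.9907 for the other 4. It was singled out in part for its high stress and fasting transcripts, so what those gene groups do without it is a description and no independent finding. Every main result is given with and without it. Cpa3Cre/+ replicate 2 was the only male of the 5. Its 4 counted Y-linked genes summed to 1501 reads, but it also held 496 reads of Xist, the transcript of the inactive X chromosome. The 4 female libraries held 2820 to 7236 Xist reads and 9 to 86 reads of the same Y-linked genes. The part that these reads of the other sex play in the results was not tested. Sex was a covariate of the fits given here, and fits without it are named in the closing section. A transcript's level in whole tissue depends on the number of cells that make it and on its amount per cell, and fewer cells of a type cannot be told apart from less RNA per cell.

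Mast cell proteases, led by Cpa3 itself, had mostly negative fold changes in the Cpa3Cre/+ jejunum, whereas the other mast cell markers were divided. Cpa3 (chr3:20215620-20242181, minus strand, GRCm38) was at 0.620 and 0.220 CPM in Cpa3Cre/+ libraries, against 1.85, 5.68 and 6.48 CPM in Cpa3+/+ libraries. The groups did not overlap, and both Cpa3Cre/+ libraries lay under 1 CPM. The log2 fold change was -3.30 (SE 0.86, unadjusted p = 0.0012 and adjusted p = 0.635 by edgeR's quasi-likelihood test), and -3.15 without Cpa3+/+ replicate 2 (SE 0.92, unadjusted p = 0.00356). Mcpt1, the chymase of mucosal mast cells, was at 12.4 and 29.5 CPM in Cpa3Cre/+ libraries, against 35.002, 27.8 and 111 CPM in Cpa3+/+ libraries. Cpa3+/+ replicate 3 was about 3 times as high as any other day 1 library, and Cpa3Cre/+ replicate 2 lay between the Cpa3+/+ replicates 1 and 2. Mcpt2, its neighbour in the same protease cluster, was at 4.53 and 10.1 CPM in Cpa3Cre/+ libraries, against 10.6, 7.18 and 36.7 CPM in Cpa3+/+ libraries, and the groups overlapped in the same way. Fcer1a, the IgE-binding chain of FcεRI, was at 0.310 and 0.661 CPM in Cpa3Cre/+ libraries, against 0.846, 0.745 and 3.35 CPM in Cpa3+/+ libraries. All 3 Cpa3+/+ libraries were above both Cpa3Cre/+ libraries, by a small margin in replicates 1 and 2. Ms4a2, the β chain of the receptor, was at 0.372 and 0.294 CPM in Cpa3Cre/+ libraries, against 0.308, 0.466 and 1.83 CPM in Cpa3+/+ libraries, with replicate 3 alone set apart.

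Across the 10 listed mast cell proteases, 9 had enough reads to be tested and their median log2 fold change was -1.46, against 0.02 over all 17236 genes tested. The median was -1.84 without Cpa3+/+ replicate 2, -0.74 without Cpa3+/+ replicate 3 and -2.28 without Cpa3Cre/+ replicate 2. At an unadjusted p under 0.05, 2 of the 9 were lower and 0 were higher, where 3.74% of all genes were lower and 3.65% were higher. Without Cpa3+/+ replicate 2, 4 of the 9 were lower, where 1.14% of all genes were lower and 2.61% were higher. The 4 were Cpa3, Mcpt1, Mcpt2 and Mcpt9, another mucosal protease, whose log2 fold changes without that library were -3.15, -2.17, -1.98 and -2.06. Of 12 tested other mast cell markers, 6 had positive and 6 negative fold changes, with a median log2 fold change of -0.13, and -0.02 without Cpa3+/+ replicate 2. At an unadjusted p under 0.05, 2 were lower, Fcer1a and Tph1 (the first enzyme of serotonin synthesis outside the brain), and Fcer1a alone without Cpa3+/+ replicate 2. The members of this list summed to 136 and 138 CPM in Cpa3Cre/+ libraries, against 128, 154 and 140.5 CPM in Cpa3+/+ libraries, with overlapping groups. Kit, the receptor for stem cell factor, is also made by the interstitial cells of Cajal that pace gut contraction. It was at 19.4 and 20.9 CPM in Cpa3Cre/+ libraries, against 16.8, 18.5 and 20.7 CPM in Cpa3+/+ libraries, with overlapping groups. The genotype difference in these genes on day 1 was not told apart from the mean difference in the other 4 states. This comparison gave log2 differences of -0.31 for Cpa3 (unadjusted p = 0.74) and 0.60 for Mcpt1 (unadjusted p = 0.439). The median log2 difference of the 9 tested proteases was 0.93, and 0.82 without Cpa3+/+ replicate 2. A positive value places the day 1 fold change above the mean of the other 4 states. In Cpa3+/+ libraries Mcpt1 averaged 57.9 CPM on day 1 and 323 CPM on day 3.

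**Figure D1:**
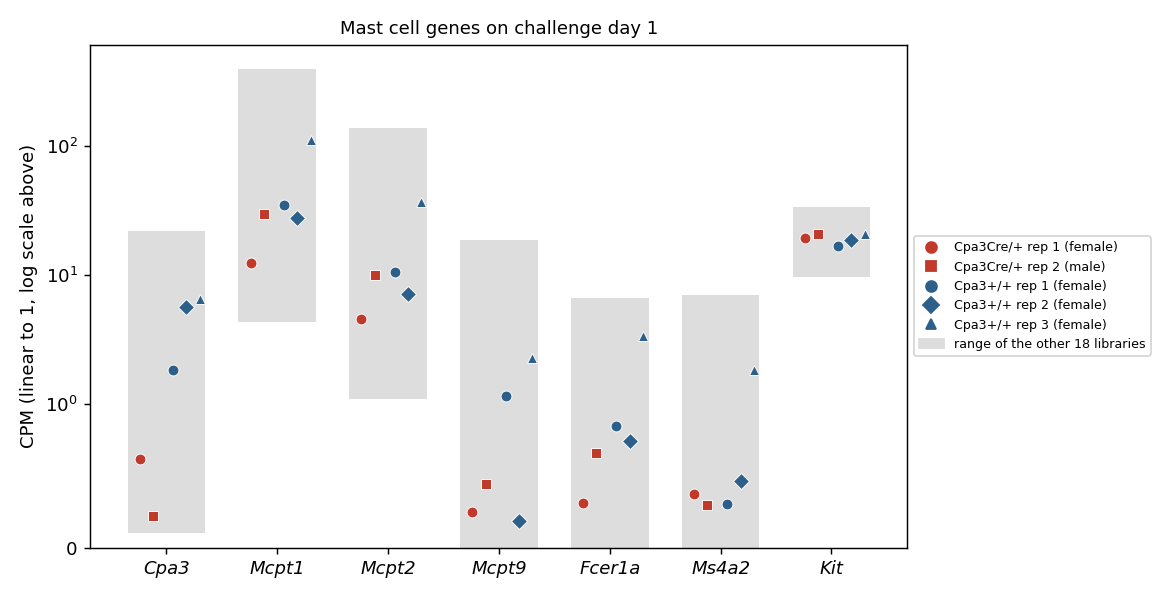
Levels of 7 mast cell genes in CPM (linear up to 1 and logarithmic above) in the 2 Cpa3Cre/+ (red) and 3 Cpa3+/+ (blue) day 1 libraries, with the range of the other 18 libraries in grey. Cpa3 separates the groups, Mcpt1 and Mcpt2 are highest in Cpa3+/+ replicate 3, and Kit is at one level in all 5.

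Across all genes, no call passed the adjusted threshold. edgeR called 0 of 17236 genes at an adjusted p under 0.05, which is 0%, and placed 629 genes higher and 645 lower in Cpa3Cre/+ at an unadjusted p under 0.05. DESeq2 on the same counts called 3 genes, and 1655 at an unadjusted p under 0.05. Without Cpa3+/+ replicate 2, edgeR called 0 of 17233 genes, with 450 higher and 196 lower unadjusted. DESeq2 then also called 0, with 773 unadjusted. The list of lower genes lost more than the list of higher genes: 107 genes were lower in both fits, 16.6% of the first list and 54.6% of the second, and 271 were higher in both, 43.1% and 60.2%. Fitted without the filter on low counts, edgeR called 233 genes with all libraries and 86 without Cpa3+/+ replicate 2, and 61 genes were in both sets. In that fit the median prior degrees of freedom were infinite, so most genes took the spread of the trend over genes, whereas with the filter the median was 5.5. Group values that do not overlap were found for 13.3% of genes with Cpa3Cre/+ higher and 9.56% with Cpa3Cre/+ lower. The shares were 20.9% and 17.2% without Cpa3+/+ replicate 2.

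**Figure D2:**
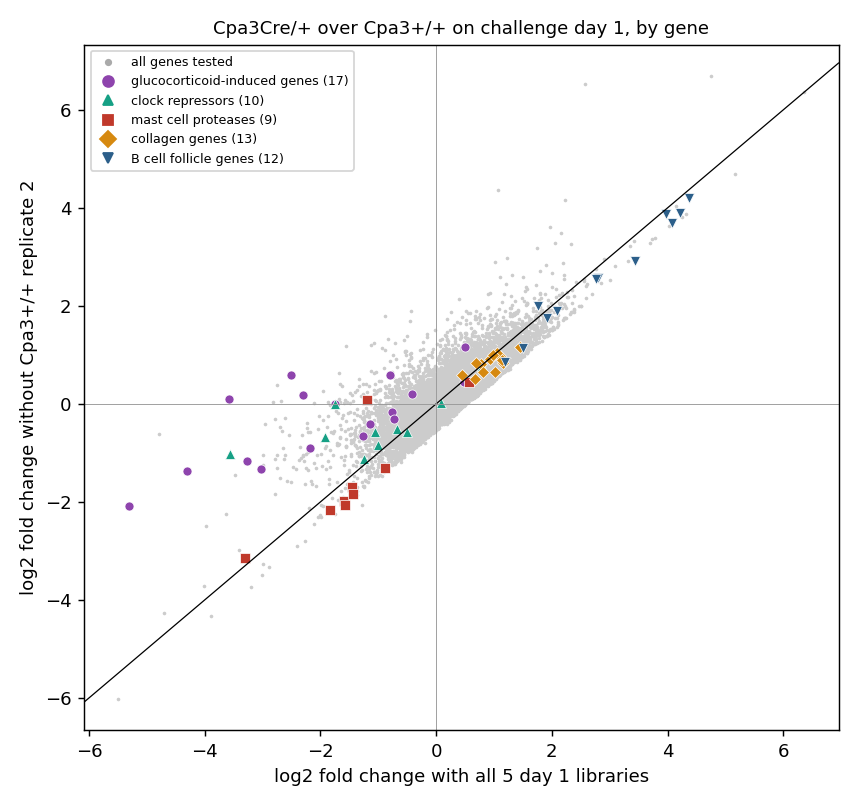
Each point is a gene, placed by its log2 fold change (Cpa3Cre/+ over Cpa3+/+) with all 5 day 1 libraries on the x axis and without Cpa3+/+ replicate 2 on the y axis, and the diagonal marks equal values. Mast cell proteases, collagens and B cell follicle genes lie near the diagonal, whereas many glucocorticoid-induced genes and some clock repressors lie well to the left of it.

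The 3 genes called by DESeq2 were Hsd3b3, Cemip and Ighv1-55. edgeR gave each an adjusted p of 0.635 with the filter on low counts, and called all 3 without the filter, with and without Cpa3+/+ replicate 2. Hsd3b3 (chr3:98741523-98763127), a 3β-hydroxysteroid dehydrogenase of steroid metabolism, was at 13.2 and 14.6 CPM in Cpa3Cre/+ libraries, against 48.5, 100.3 and 27.7 CPM in Cpa3+/+ libraries. All 3 Cpa3+/+ libraries lay above both Cpa3Cre/+ libraries, with a DESeq2 log2 fold change of -2.32 (SE 0.51, DESeq2 adjusted p = 0.0316). The edgeR log2 fold change was -2.27, and -1.63 without Cpa3+/+ replicate 2. Cemip (chr7:83932857-84086502), a protein that takes part in the breakdown of hyaluronan, was at 2.05 and 1.32 CPM in Cpa3Cre/+ libraries, against 6.15, 53.4 and 10.4 CPM in Cpa3+/+ libraries. The Cpa3Cre/+ values lay within the 0.69 to 7.82 CPM of the other 18 libraries, whereas Cpa3+/+ replicates 2 and 3 lay above that range. Its DESeq2 log2 fold change was -4.03 (SE 0.82, DESeq2 adjusted p = 0.00725). By edgeR it was -3.97, and -2.49 without Cpa3+/+ replicate 2. Ighv1-55, an immunoglobulin heavy chain variable segment, was at 11.7 and 4.997 CPM in Cpa3Cre/+ libraries, against 1.23, 0.932 and 1.30 CPM in Cpa3+/+ libraries (DESeq2 adjusted p = 0.00725). Variable segments are near copies of one another, and their reads can be divided between copies in counting. DESeq2 called none of the 3 without Cpa3+/+ replicate 2.

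Glucocorticoid-induced genes had the lowest median fold change of the lists with at least 5 tested genes, and that median was near 0 without Cpa3+/+ replicate 2, the library singled out for such transcripts. Glucocorticoids are the steroid hormones of stress and fasting. They act through a receptor that binds paired half-sites in DNA, and their targets include Fkbp5, which feeds back on the receptor, and the kinase Sgk1. The clock genes form a second group with a daily rhythm, in which CLOCK and BMAL1 bind E-boxes and drive the Per, Cry, Nr1d and Ciart repressors that in turn restrain them. Promoters were available for 8 of 10 clock repressors and 16 of 18 glucocorticoid-induced genes. In the 250 bases before the start, the E-box CACGTG, which reads the same on both strands, was found in promoters of 1854 of 27025 genes (6.02% of 32851 promoters), of 4 of the 8 matched clock repressors and of 5 of the 16 matched glucocorticoid-induced genes, Sgk1 among them. The glucocorticoid response element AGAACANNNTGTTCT, searched on both strands, was found in 0.00913% of promoters, 1 of which belonged to Sgk1. Sgk1 was the only 1 of the 16 matched glucocorticoid-induced genes with this element in the window. Shown are the RefSeq sequences (GRCm38.p6) upstream of 4 genes lower in Cpa3Cre/+ on day 1, with the matched letters in capitals, to set the best known binding letters of both systems beside the values.
Ciart, chr3:95882229-95882478 (minus strand): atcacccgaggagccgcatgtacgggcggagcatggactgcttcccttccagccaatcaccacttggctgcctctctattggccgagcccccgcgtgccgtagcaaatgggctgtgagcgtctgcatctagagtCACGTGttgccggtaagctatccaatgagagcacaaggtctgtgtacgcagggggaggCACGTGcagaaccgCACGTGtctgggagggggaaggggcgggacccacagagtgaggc
Cry1, chr10:85185055-85185304 (minus strand): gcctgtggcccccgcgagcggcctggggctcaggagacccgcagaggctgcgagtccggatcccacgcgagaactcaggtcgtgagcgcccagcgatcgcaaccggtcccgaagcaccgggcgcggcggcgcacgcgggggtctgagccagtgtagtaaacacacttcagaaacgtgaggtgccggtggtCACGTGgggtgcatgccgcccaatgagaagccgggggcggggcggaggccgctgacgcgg
Tef, chr15:81802423-81802672 (plus strand): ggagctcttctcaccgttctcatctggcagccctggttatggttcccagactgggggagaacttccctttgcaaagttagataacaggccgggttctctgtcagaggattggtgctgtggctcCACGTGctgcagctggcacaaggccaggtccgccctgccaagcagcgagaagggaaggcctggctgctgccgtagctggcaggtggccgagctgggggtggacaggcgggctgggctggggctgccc
Sgk1, chr10:21993640-21993889 (plus strand): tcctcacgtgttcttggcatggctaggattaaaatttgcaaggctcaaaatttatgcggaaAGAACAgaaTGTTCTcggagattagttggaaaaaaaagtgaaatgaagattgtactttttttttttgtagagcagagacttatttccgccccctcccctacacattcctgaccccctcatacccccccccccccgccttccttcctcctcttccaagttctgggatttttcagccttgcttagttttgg
Ciart holds 3 E-boxes, which begin 116, 58 and 44 bases before the start, Cry1 holds 1 at 60 bases and Tef 1 at 127 bases. In Sgk1 only the response element is in capitals, and the E-box letters near the left end of its window are in lower case. Its half-sites begin 189 bases before the start of 1 of its 6 listed promoters. A match describes letters in this window, and binding was not measured.

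Of the 18 glucocorticoid-induced genes, 17 were tested, and 11 were lower and 0 higher in Cpa3Cre/+ at an unadjusted p under 0.05 (against 3.74% and 3.65% of all genes). Their median log2 fold change was -1.75, and 16 of the 17 were highest in Cpa3+/+ replicate 2. Fkbp5 was at 14.5 and 14.8 CPM in Cpa3Cre/+ libraries, against 28.7, 951 and 61.9 CPM in Cpa3+/+ libraries. Replicate 2 was over 15 times any other day 1 library, and the other 2 Cpa3+/+ libraries were still above both Cpa3Cre/+ libraries. Its log2 fold change was -4.30 (SE 1.12), and -1.37 without Cpa3+/+ replicate 2 (SE 0.51, unadjusted p = 0.017). Sgk1, whose response element is printed above, was at 119 and 97.1 CPM in Cpa3Cre/+ libraries, against 331, 1870.1 and 159 CPM in Cpa3+/+ libraries, again with no overlap, and its log2 fold change was -3.03 with and -1.34 without Cpa3+/+ replicate 2. Errfi1, a feedback inhibitor of the EGF receptor, was at 57.7 and 34.2 CPM in Cpa3Cre/+ libraries, against 82.5, 455 and 89.03 CPM in Cpa3+/+ libraries. Zbtb16, a transcription factor, was at 1.12 and 0.882 CPM in Cpa3Cre/+ libraries, against 0.615, 155 and 11.1 CPM in Cpa3+/+ libraries. For Zbtb16 the groups overlapped, since Cpa3+/+ replicate 1 was the lowest of the 5. Without Cpa3+/+ replicate 2 the median of the list was -0.17, with 5 of 17 lower, where the median of all genes was 0.04 and 1.14% were lower. Fkbp5, Errfi1, Sgk1 and Zbtb16 were among the 5.

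Most clock repressors had lower values in Cpa3Cre/+, and not against Cpa3+/+ replicate 2 alone. Of 10 clock repressors, 8 were lower in both Cpa3Cre/+ libraries than in any Cpa3+/+ library, with or without Cpa3+/+ replicate 2 (against 9.56% and 17.2% of all genes). At an unadjusted p under 0.05, 5 of the repressors were lower with all libraries and 2 without Cpa3+/+ replicate 2 (against 3.74% and 1.14% of all genes). Their median log2 fold change was -1.03 and -0.57. Cry1, a cryptochrome that represses CLOCK and BMAL1, was at 12.9 and 10.3 CPM in Cpa3Cre/+ libraries, against 20.9, 26.7 and 18.98 CPM in Cpa3+/+ libraries. Both Cpa3Cre/+ values were lower than all 3 Cpa3+/+ values, and replicate 2 was near the other Cpa3+/+ libraries. The log2 fold change was -0.9995 (SE 0.30, unadjusted p = 0.00343) and -0.84 without Cpa3+/+ replicate 2 (SE 0.30, unadjusted p = 0.0133). Cry2, its paralog, was at 15.6 and 14.4 CPM in Cpa3Cre/+ libraries, against 24.6, 123 and 23.8 CPM in Cpa3+/+ libraries. Ciart, the repressor with 3 E-boxes in the printed window, was at 1.74 and 1.40 CPM in Cpa3Cre/+ libraries, against 2.85, 54.98 and 4.19 CPM in Cpa3+/+ libraries. For both genes, replicate 2 was far above all other libraries of the series. Nr1d2 (REV-ERBβ), a receptor that represses Bmal1, was at 89.2 and 57.2 CPM in Cpa3Cre/+ libraries, against 100.5, 246 and 123 CPM in Cpa3+/+ libraries. Among 9 clock activators and output factors, 2 were lower with all libraries and 1 without Cpa3+/+ replicate 2. Tef, a rhythmic transcription factor, was at 72.1 and 53.2 CPM in Cpa3Cre/+ libraries, against 108, 264 and 91.9 CPM in Cpa3+/+ libraries (log2 fold change -1.30, and -0.67 without Cpa3+/+ replicate 2). The labels gave no time of day for tissue collection, so a difference in sampling time cannot be told apart from a difference between genotypes.

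Fasting genes were mostly highest in Cpa3+/+ replicate 2, which had been singled out for such transcripts, whereas chaperone and endoplasmic reticulum stress genes mostly were not. Over all genes tested, 5428 of 17236 were highest in that library of the 5, against 10 of 17 fasting and ketogenesis genes, 11 of 20 p53 targets, 4 of 20 integrated and endoplasmic reticulum stress genes and 2 of 12 heat shock chaperones. Of 17 tested fasting and ketogenesis genes, 0 had a positive fold change and 5 were lower at an unadjusted p under 0.05, but 0 without Cpa3+/+ replicate 2, and the median log2 fold change was -0.63 and -0.40. Of all genes, 3.74% were lower at that threshold, and 1.14% without Cpa3+/+ replicate 2. Pdk4, a kinase that spares glucose and is also on the glucocorticoid list, was at 47.5 and 51.9 CPM in Cpa3Cre/+ libraries, against 77.5, 1069.8 and 121 CPM in Cpa3+/+ libraries. Pck1, the enzyme that commits carbon to gluconeogenesis, was at 489 and 366 CPM in Cpa3Cre/+ libraries, against 682, 7483 and 884 CPM in Cpa3+/+ libraries. G6pc, which releases free glucose, was at 59.9 and 59.1 CPM in Cpa3Cre/+ libraries, against 109, 517 and 91.1 CPM in Cpa3+/+ libraries. In all 3 genes replicate 2 was highest and the other Cpa3+/+ libraries were nearer to the Cpa3Cre/+ libraries, without overlap. Cyp4a10, a fatty acid ω-hydroxylase, was at 13.6 and 8.67 CPM in Cpa3Cre/+ libraries, against 11.8, 61.8 and 30.7 CPM in Cpa3+/+ libraries, with overlap. Of 20 p53 target genes, 4 were lower with all libraries and 1 without Cpa3+/+ replicate 2. That 1 was Pmaip1, a death-promoting BH3 protein, at 60.4 and 42.5 CPM in Cpa3Cre/+ libraries, against 83.2, 736 and 99.02 CPM in Cpa3+/+ libraries. Ddit4, an mTORC1 inhibitor that is also a glucocorticoid target, was at 17.99 and 25.6 CPM in Cpa3Cre/+ libraries, against 20.8, 341 and 25.3 CPM in Cpa3+/+ libraries. Its log2 fold change of -2.31 turned to 0.18 without Cpa3+/+ replicate 2. The integrated and endoplasmic reticulum stress genes had a median log2 fold change of -0.18, and -0.33 without Cpa3+/+ replicate 2, with 1 of 20 lower at an unadjusted p under 0.05 in each fit, Herpud1 with all libraries and the chaperone Hspa5 without Cpa3+/+ replicate 2. Herpud1, which acts in protein degradation at that organelle, was at 107 and 125 CPM in Cpa3Cre/+ libraries, against 159, 1137 and 162 CPM in Cpa3+/+ libraries. The heat shock chaperones had medians of -0.25 and -0.24, with 1 of 12 lower in each fit. Hspa8, the constitutive Hsp70 chaperone, was instead high in all 3 Cpa3+/+ libraries, at 614 and 716 CPM in Cpa3Cre/+ libraries, against 1315, 1101 and 983 CPM in Cpa3+/+ libraries (log2 fold change -0.95, and -0.97 without Cpa3+/+ replicate 2). Klf6, an immediate early factor, was lower at 150.3 and 106 CPM in Cpa3Cre/+ libraries, against 195, 288 and 284 CPM in Cpa3+/+ libraries, and Myc was higher at 33.6 and 49.7 CPM in Cpa3Cre/+ libraries, against 26.5, 10.1 and 26.1 CPM in Cpa3+/+ libraries.

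**Figure D3:**
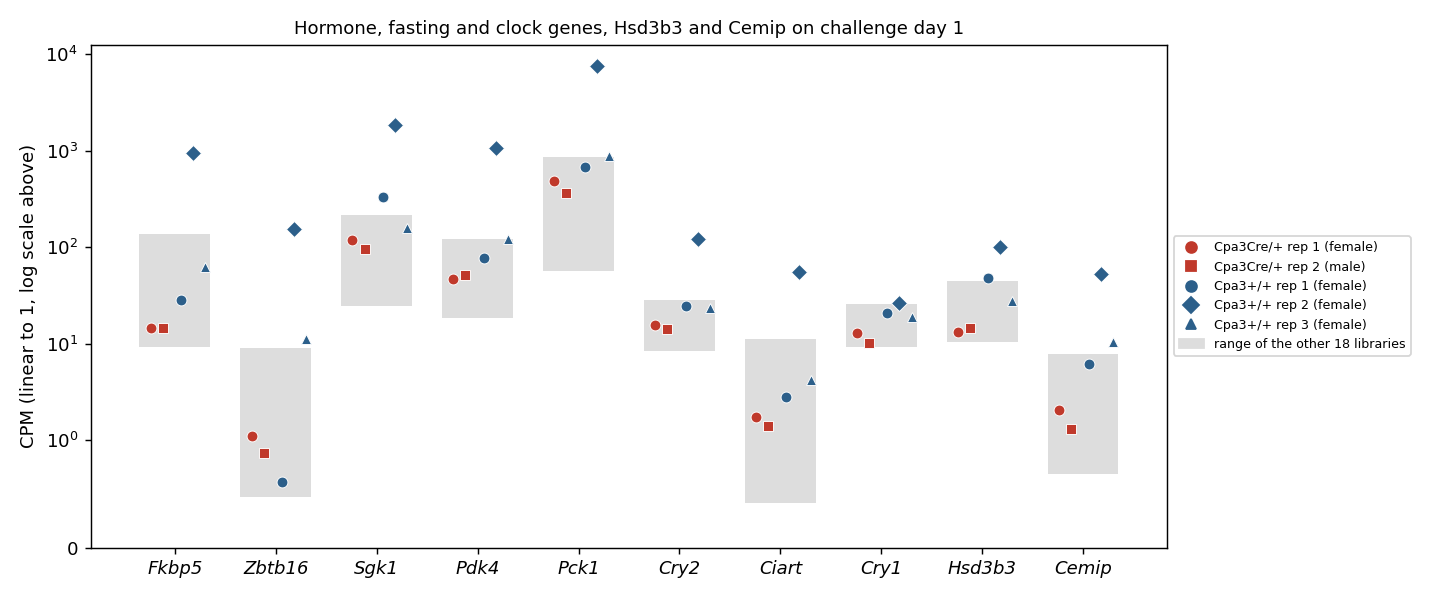
Levels of glucocorticoid-induced, fasting and clock genes and of Hsd3b3 and Cemip in CPM (linear up to 1 and logarithmic above) in the 2 Cpa3Cre/+ (red) and 3 Cpa3+/+ (blue) day 1 libraries, with the range of the other 18 libraries in grey. Cpa3+/+ replicate 2 (diamond) is above the grey range in each of the 10 genes, and both Cpa3Cre/+ libraries are inside it.

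Genes of the absorptive epithelium had mostly negative fold changes, but few or none passed the unadjusted threshold. Of all genes, 3.74% were lower at that threshold, and 1.14% without Cpa3+/+ replicate 2. All 20 absorptive enterocyte genes had negative fold changes, with a median log2 fold change of -0.65 with all libraries and -0.74 without Cpa3+/+ replicate 2, and 0 had an unadjusted p under 0.05 in either fit. Groups did not overlap for 8 of the 20, and for 16 without Cpa3+/+ replicate 2, where 9.56% and 17.2% of all genes did not overlap with Cpa3Cre/+ lower. Alpi, the intestinal alkaline phosphatase of the brush border, was at 857 and 600.1 CPM in Cpa3Cre/+ libraries, against 1028, 1639.8 and 962 CPM in Cpa3+/+ libraries. Apoa1, an apolipoprotein of chylomicrons and HDL, was at 8121 and 6637 CPM in Cpa3Cre/+ libraries, against 14674, 23674 and 8473 CPM in Cpa3+/+ libraries. The male Cpa3Cre/+ replicate 2 was the lowest library for both. Without it the median of the list was -0.21, and without Cpa3Cre/+ replicate 1 it was -1.71. All 19 fat absorption and chylomicron genes were also negative (median -0.65, and -0.22 without Cpa3Cre/+ replicate 2), and 4 were lower at an unadjusted p under 0.05, against 0 without Cpa3+/+ replicate 2. Dgat2, which completes triglyceride synthesis, was at 355 and 235 CPM in Cpa3Cre/+ libraries, against 645, 1318 and 473 CPM in Cpa3+/+ libraries. Cd36, a fatty acid uptake receptor, was at 221 and 169 CPM in Cpa3Cre/+ libraries, against 228, 838 and 277 CPM in Cpa3+/+ libraries. For both genes Cpa3+/+ replicate 2 was highest and the groups did not overlap. Slc6a19, the main apical transporter of neutral amino acids, was at 832 and 474 CPM in Cpa3Cre/+ libraries, against 942, 1794 and 1099 CPM in Cpa3+/+ libraries, the only 1 of 15 peptidases and amino acid transporters at an unadjusted p under 0.05, where none was without Cpa3+/+ replicate 2. Of 22 detoxification genes, 21 were negative with a median of -0.89, and 4 were lower, against 1 without Cpa3+/+ replicate 2. Cyp3a11, a cytochrome P450 for drugs and steroids, was at 656 and 572 CPM in Cpa3Cre/+ libraries, against 937, 7827 and 1069 CPM in Cpa3+/+ libraries, highest in Cpa3+/+ replicate 2. Cyp1a1, a target of the aryl hydrocarbon receptor, was instead highest in Cpa3+/+ replicate 1, at 2.36 and 5.36 CPM in Cpa3Cre/+ libraries, against 53.5, 5.03 and 11.3 CPM in Cpa3+/+ libraries.

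Paneth and stem cell genes of the crypt had mostly positive fold changes, with few past the unadjusted threshold. Of all genes, 3.65% were higher at that threshold, and 2.61% without Cpa3+/+ replicate 2. Of 15 tested Paneth cell genes, 14 had positive fold changes, and the groups did not overlap for 13 (against 13.3% of all genes with Cpa3Cre/+ higher). At an unadjusted p under 0.05, 1 Paneth cell gene was higher, against 0 without Cpa3+/+ replicate 2. The median log2 fold change was 0.93 and 0.73, and 0.56 without Cpa3Cre/+ replicate 2. Defa17, a defensin, was at 166 and 263 CPM in Cpa3Cre/+ libraries, against 154, 70.4 and 159 CPM in Cpa3+/+ libraries, and Pla2g2a, a phospholipase that kills bacteria, was at 2134 and 3004 CPM in Cpa3Cre/+ libraries, against 1588, 748 and 1704 CPM in Cpa3+/+ libraries. Mmp7, the protease that activates defensins, was at 161 and 155 CPM in Cpa3Cre/+ libraries, against 105, 55.9 and 116 CPM in Cpa3+/+ libraries. Cpa3+/+ replicate 2 was the lowest library for all 3, and defensin genes are near copies that can share reads. All 12 intestinal stem cell genes were positive, with 2 higher and 1 without Cpa3+/+ replicate 2. Their median was 0.55, 0.34 without Cpa3+/+ replicate 2 and 0.15 without the male Cpa3Cre/+ replicate 2, in which 10 of the 12 were highest. Sox9, a factor of stem and Paneth cells, was at 23.2 and 32.8 CPM in Cpa3Cre/+ libraries, against 16.6, 11.8 and 18.3 CPM in Cpa3+/+ libraries (log2 fold change 0.94, and 0.78 without Cpa3+/+ replicate 2). Axin2, a readout of Wnt signalling, was at 60.4 and 67.2 CPM in Cpa3Cre/+ libraries, against 49.4, 22.7 and 52.7 CPM in Cpa3+/+ libraries. The 20 proliferation genes had a median of 0.16, and -0.03 without Cpa3Cre/+ replicate 2. With all libraries and without Cpa3+/+ replicate 2, 1 of them was higher. This was Plk1, a mitotic kinase, at 28.98 and 32.3 CPM in Cpa3Cre/+ libraries, against 25.1, 18.7 and 23.1 CPM in Cpa3+/+ libraries. The 14 goblet cell genes had a median of 0.21, and -0.06 without Cpa3+/+ replicate 2, and 2 were higher, Ccl9 at 19.6 and 25.7 CPM in Cpa3Cre/+ libraries, against 16.001, 15.2 and 15.8 CPM in Cpa3+/+ libraries and Spink4 at 355 and 430.4 CPM in Cpa3Cre/+ libraries, against 268, 193 and 269 CPM in Cpa3+/+ libraries, and 1 without Cpa3+/+ replicate 2.

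Collagen genes had higher values in Cpa3Cre/+. All 13 collagen genes had positive fold changes, and the groups did not overlap for 11, or for 12 without Cpa3+/+ replicate 2. Over all genes, this held for 13.3% and 20.9% with Cpa3Cre/+ higher. At an unadjusted p under 0.05, 7 of the collagens were higher with all libraries and 2 without Cpa3+/+ replicate 2 (against 3.65% and 2.61% of all genes). Their median log2 fold change was 0.98 and 0.84. Col1a1, a chain of fibrillar type I collagen, was at 112 and 135 CPM in Cpa3Cre/+ libraries, against 65.1, 32.1 and 80.6 CPM in Cpa3+/+ libraries. Both Cpa3Cre/+ libraries were high and replicate 2 was the lowest of the Cpa3+/+ libraries. The log2 fold change was 1.45 (SE 0.47, unadjusted p = 0.00695), and 1.16 without Cpa3+/+ replicate 2 (SE 0.48, unadjusted p = 0.0286). Col1a2, its partner chain, was at 138 and 161 CPM in Cpa3Cre/+ libraries, against 82.7, 71.2 and 107 CPM in Cpa3+/+ libraries. Col5a1, which nucleates fibrils, was at 41.5 and 47.2 CPM in Cpa3Cre/+ libraries, against 26.001, 27.02 and 30.9 CPM in Cpa3+/+ libraries, with the 3 Cpa3+/+ libraries close together. Col6a2, of the beaded type VI network, was at 153 and 185 CPM in Cpa3Cre/+ libraries, against 101, 107 and 123 CPM in Cpa3+/+ libraries. Without the male Cpa3Cre/+ replicate 2 the median of the collagens was 0.47. Smooth muscle genes of the gut wall were also positive in all 14 (median 0.75, 0.56 without Cpa3+/+ replicate 2 and 0.28 without Cpa3Cre/+ replicate 2), but 0 had an unadjusted p under 0.05 and the groups overlapped for 13. Their summed level was 2033 and 2126 CPM in Cpa3Cre/+ libraries, against 2316, 1182 and 1606 CPM in Cpa3+/+ libraries. The share of muscle and connective tissue in each piece of jejunum was not measured.

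Antigen-presenting and B-lineage genes had mostly positive fold changes, and most were highest in Cpa3Cre/+ replicate 2. All 7 MHC class II genes, which present peptides to CD4+ T cells, were positive without overlap, with 4 higher at an unadjusted p under 0.05 and 1 without Cpa3+/+ replicate 2. Of all genes, 13.3% did not overlap with Cpa3Cre/+ higher (20.9% without that library). The shares higher at that threshold were 3.65% and 2.61%. H2-Ab1 was at 155 and 274 CPM in Cpa3Cre/+ libraries, against 146, 101 and 108 CPM in Cpa3+/+ libraries. Cpa3Cre/+ replicate 1 was only slightly above Cpa3+/+ replicate 1, and the same held for H2-DMa at 21.3 and 34.1 CPM in Cpa3Cre/+ libraries, against 20.4, 15.1 and 17.7 CPM in Cpa3+/+ libraries. The median log2 fold change of the 7 was 0.95, and 0.28 without Cpa3Cre/+ replicate 2. All 16 macrophage and dendritic cell genes were positive (median 0.83), with 4 higher and 2 without Cpa3+/+ replicate 2. Cd68, a lysosomal protein of macrophages, was at 15.6 and 17.9 CPM in Cpa3Cre/+ libraries, against 10.8, 7.27 and 11.7 CPM in Cpa3+/+ libraries, above the 12.6 CPM maximum of the other 18 libraries in both Cpa3Cre/+ libraries. C1qc, a complement chain made by resident macrophages, was at 53.1 and 87.7 CPM in Cpa3Cre/+ libraries, against 48.8, 52.1 and 36.4 CPM in Cpa3+/+ libraries, and Batf3, a factor of type 1 dendritic cells, at 2.36 and 3.01 CPM in Cpa3Cre/+ libraries, against 1.38, 0.373 and 0.762 CPM in Cpa3+/+ libraries.

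B cell follicle genes had the highest median of the lists with at least 5 tested genes, and it rested on a single library. The median log2 fold change of the 12 genes was 2.78, all 12 were highest in Cpa3Cre/+ replicate 2, and 5 were higher at an unadjusted p under 0.05, against 0 without Cpa3+/+ replicate 2. Of all genes, 3.65% were higher at that threshold, and 2.61% without Cpa3+/+ replicate 2. Without Cpa3Cre/+ replicate 2 the median was 0.61. Pax5, which sets B cell identity, was at 0.372 and 4.63 CPM in Cpa3Cre/+ libraries, against 0.308, 0.186 and 0.229 CPM in Cpa3+/+ libraries. Fcmr, the IgM receptor, was at 0.310 and 4.78 CPM in Cpa3Cre/+ libraries, against 0.538, 0.0932 and 0.229 CPM in Cpa3+/+ libraries, and Cd79a, of the B cell receptor, at 7.76 and 23.2 CPM in Cpa3Cre/+ libraries, against 8.08, 3.54 and 2.90 CPM in Cpa3+/+ libraries. For Pax5 and Fcmr, Cpa3Cre/+ replicate 1 was close to the Cpa3+/+ libraries. The 12 genes summed to 29.7 and 96.9 CPM in Cpa3Cre/+ libraries, against 27.0, 10.5 and 17.7 CPM in Cpa3+/+ libraries. Peyer's patches were removed per the labels, and how much lymphoid tissue each piece kept was not tested. S1pr2, a receptor that confines germinal centre B cells, was at 3.72 and 6.32 CPM in Cpa3Cre/+ libraries, against 2.23, 1.77 and 1.83 CPM in Cpa3+/+ libraries, with no overlap (log2 fold change 1.62, and 1.56 without Cpa3+/+ replicate 2). Of 18 plasma cell and immunoglobulin constant genes, 4 were higher and 2 without Cpa3+/+ replicate 2. Iglc3, a λ light chain constant gene, was at 19.7 and 55.3 CPM in Cpa3Cre/+ libraries, against 10.4, 10.6 and 8.31 CPM in Cpa3+/+ libraries, and Tnfrsf17 (BCMA), a survival receptor of plasma cells, was at 0.993 and 2.50 CPM in Cpa3Cre/+ libraries, against 1.0000, 0.280 and 0.610 CPM in Cpa3+/+ libraries. Iglc3 did not overlap between groups, and the lower Cpa3Cre/+ library was about 2 times the Cpa3+/+ libraries.

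**Figure D4:**
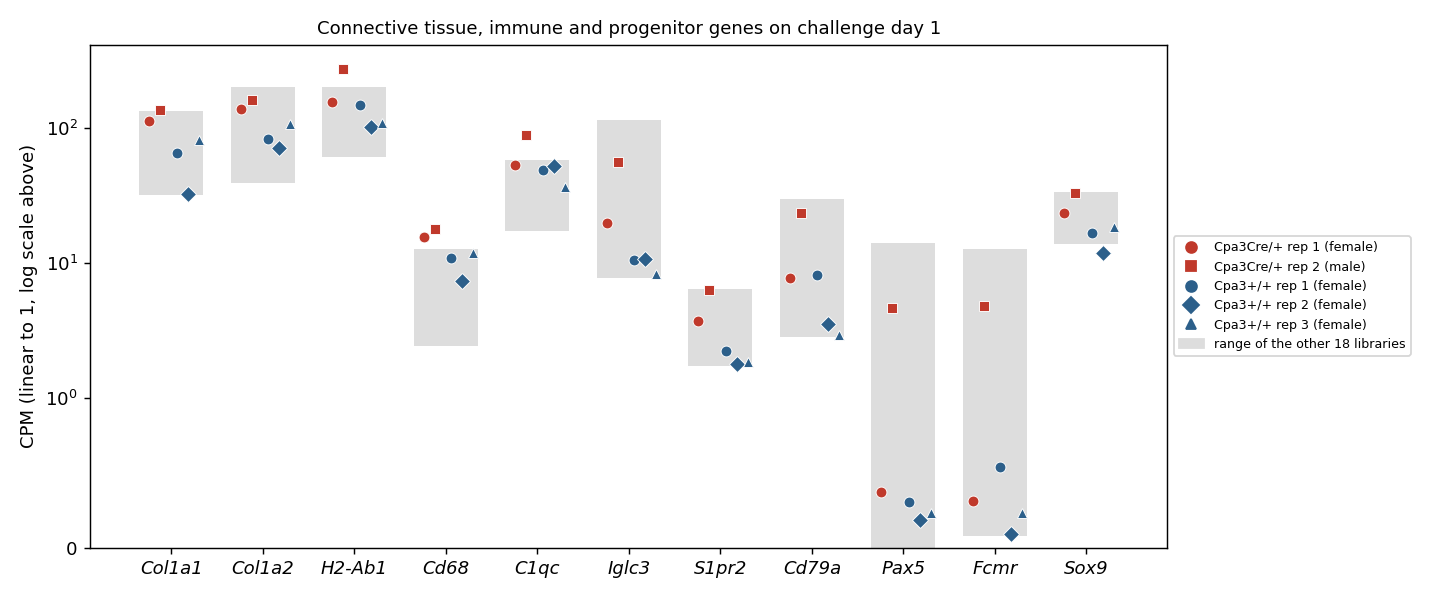
Levels of collagen, antigen presentation, macrophage, immunoglobulin, B cell and progenitor genes in CPM (linear up to 1 and logarithmic above) in the 2 Cpa3Cre/+ (red) and 3 Cpa3+/+ (blue) day 1 libraries, with the range of the other 18 libraries in grey. Both Cpa3Cre/+ libraries are high for the collagens and Cd68, whereas Pax5 and Fcmr are high in Cpa3Cre/+ replicate 2 (square) alone.

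The medians of all lists changed unequally when Cpa3+/+ replicate 2 was left out. The glucocorticoid list moved from the lowest median of the lists with at least 5 tested genes to near the middle, and the mast cell proteases became the lowest. The collagen, MHC class II, Paneth cell and enterocyte lists kept their side. At an unadjusted p under 0.05, 3.65% of all genes were higher and 3.74% lower, and 2.61% and 1.14% without Cpa3+/+ replicate 2. Type 2 cytokines and alarmins had a median of 0.44 with 0 of 9 at that threshold, and 0.16 with 1 lower without Cpa3+/+ replicate 2. That 1 was Il33, the alarmin of epithelium and stroma that activates mast cells, at 35.1 and 17.9 CPM in Cpa3Cre/+ libraries, against 60.8, 14.5 and 54.6 CPM in Cpa3+/+ libraries (log2 fold change -1.13 without Cpa3+/+ replicate 2, unadjusted p = 0.0128). The transcripts of Il4, Il5, Il9, Il13 and Il25 had too few reads to be tested.

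**Figure D5:**
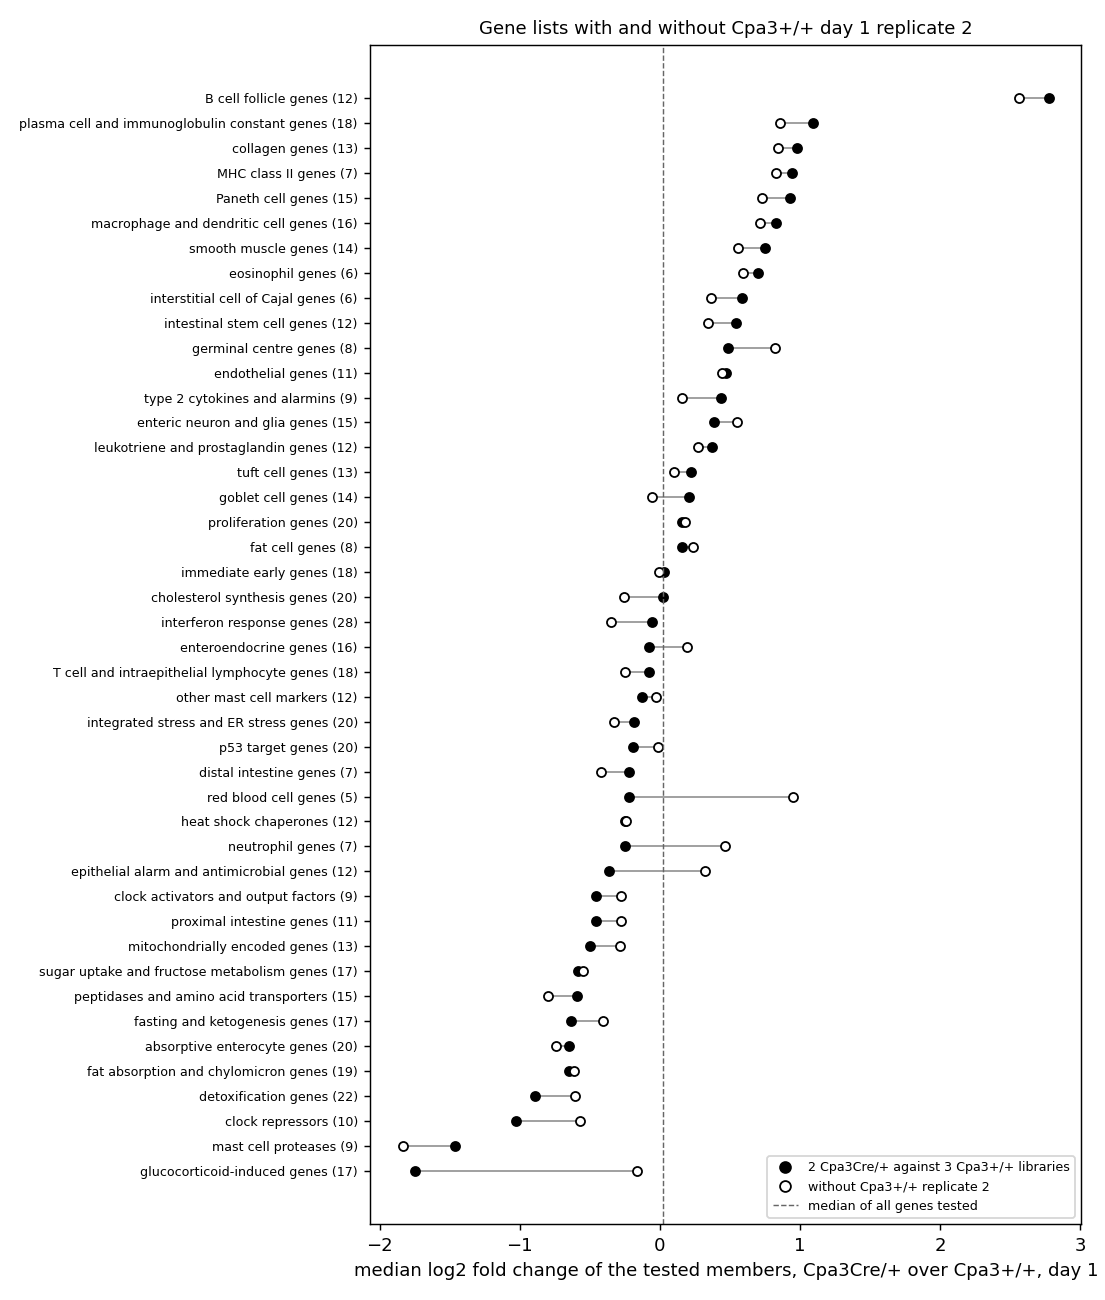
Median log2 fold change (Cpa3Cre/+ over Cpa3+/+) of the tested members of each gene list, with their number in brackets, for all 5 day 1 libraries (filled) and without Cpa3+/+ replicate 2 (open), with the median of all genes as a dashed line. B cell follicle genes are highest at 2.78 and 2.56, and glucocorticoid-induced genes lie at -1.75 and -0.17.

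The strongest single genes on day 1, mostly outside these lists, had low to moderate levels. They were chosen among genes with a mean of at least 1 CPM in a compared group and with groups that did not overlap. By unadjusted p, the higher genes were led by Rgl3, a RalGDS-like protein, at 3.35 and 3.23 CPM in Cpa3Cre/+ libraries, against 1.46, 0.652 and 1.30 CPM in Cpa3+/+ libraries, and Fhod1, a formin that shapes actin, at 35.7 and 46.6 CPM in Cpa3Cre/+ libraries, against 27.001, 15.3 and 23.1 CPM in Cpa3+/+ libraries. Each had a positive log2 fold change without Cpa3+/+ replicate 2 (1.46 and 0.84). Others of the 10 were Apol11a, Prr12, Sema6c, Map1s, Mymx, Espl1, Mdfi and Phldb1, with log2 fold changes between 0.83 and 2.56. The largest of these, 2.56 for Mymx and 2.38 for Apol11a, were those of genes at low levels. Mymx was at 1.18 and 0.882 CPM in Cpa3Cre/+ libraries, against 0.154, 0.186 and 0.229 CPM in Cpa3+/+ libraries. Apol11a was at 1.24 and 1.76 CPM in Cpa3Cre/+ libraries, against 0.538, 0 and 0.381 CPM in Cpa3+/+ libraries. The lower genes included Mapk6, an atypical MAP kinase, at 129 and 74.95 CPM in Cpa3Cre/+ libraries, against 186, 775 and 210.3 CPM in Cpa3+/+ libraries, and Pvr (CD155), a ligand of activating and inhibitory lymphocyte receptors, at 18.6 and 16.5 CPM in Cpa3Cre/+ libraries, against 27.3, 34.3 and 25.7 CPM in Cpa3+/+ libraries. Nus1, of dolichol synthesis, was at 111 and 87.8 CPM in Cpa3Cre/+ libraries, against 149.9, 267 and 142 CPM in Cpa3+/+ libraries. Without Cpa3+/+ replicate 2 the lower genes also included Arhgef26, a guanine nucleotide exchange factor, at 47.2 and 31.7 CPM in Cpa3Cre/+ libraries, against 63.8, 58.9 and 71.9 CPM in Cpa3+/+ libraries, and Odc1, the first enzyme of polyamine synthesis, at 175 and 132 CPM in Cpa3Cre/+ libraries, against 289.8, 195 and 233 CPM in Cpa3+/+ libraries. The higher genes then included Ccn1, a matrix protein, at 8.69 and 8.23 CPM in Cpa3Cre/+ libraries, against 4.85, 6.99 and 4.73 CPM in Cpa3+/+ libraries, and Eva1b at 3.23 and 6.91 CPM in Cpa3Cre/+ libraries, against 1.69, 1.86 and 1.30 CPM in Cpa3+/+ libraries. Ccn1 was on the immediate early list under its older symbol Cyr61, which was not matched, so it was not counted in that list. The groups of Pvr, Arhgef26, Odc1, Ccn1 and Eva1b did not overlap whether or not replicate 2 was counted. Lack of overlap in the libraries used was a condition of their choice.

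To compare day 1 with the other states, the genotype difference on day 1 was set against the mean genotype difference in the other 4 states in the same fit. edgeR called 0 genes, with 645 higher (3.74%) and 698 lower (4.05%) at an unadjusted p under 0.05. Without Cpa3+/+ replicate 2 it called 0, with 556 higher (3.23%) and 163 lower (0.946%). DESeq2 called 4 genes with all libraries and 0 without that library, at 1626 and 786 unadjusted. In this contrast 12 of 17 glucocorticoid-induced genes were lower at an unadjusted p under 0.05, and 3 without Cpa3+/+ replicate 2. For clock repressors the counts were 7 and 4 of 10, for collagens 9 and 6 higher of 13, and for Paneth cell genes 9 and 5 higher of 15. For B cell follicle genes they were 9 and 5 higher of 12, whereas 0 of the 9 mast cell proteases had an unadjusted p under 0.05 in either fit. Col1a1 averaged 124 CPM in Cpa3Cre/+ and 59.3 CPM in Cpa3+/+ libraries on day 1, and on day 3 it averaged 79.6 CPM in Cpa3Cre/+ and 111 CPM in Cpa3+/+ libraries. Hsd3b3 averaged 13.9 CPM in Cpa3Cre/+ and 58.8 CPM in Cpa3+/+ libraries on day 1, and on day 3 it averaged 22.97 CPM in Cpa3Cre/+ and 18.05 CPM in Cpa3+/+ libraries. Fkbp5 on day 3 had a higher mean in Cpa3Cre/+ libraries, at 83.9 CPM, against 24.5 CPM in Cpa3+/+ libraries. That Cpa3Cre/+ mean rested on 2 libraries, 1 of them at 138.5 CPM, so the other lay well below the mean. Among genes chosen for day 1 groups that did not overlap, Fzd9, a Wnt receptor, Plch2 and Akr1b7 had some of the smallest p-values in this contrast. Their log2 differences were 2.47, 1.05 and -2.95. Fold differences for such genes rest on the same 5 day 1 libraries as above.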

How the data were processed

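RNA sequencing libraries were made from total RNA of whole jejunum with the PureLink RNA Mini kit and an Illumina stranded kit, per the labels' protocols. Per the submitters' processing notes, the authors used STAR, featureCounts from Subread 1.5.1 and the builds mm10 and GRCm38. The authors deposited raw counts by Ensembl gene identifier, and no value was altered. The strand setting of the counting is not given in the sources used here, so reads of overlapping antisense genes cannot be told apart. Of 55487 genes, 55227 were matched to GENCODE vM21 by identifier. Groups came from titles and characteristics.

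All 23 libraries entered 1 fit in R 4.3.3 with edgeR 4.0.16: filterByExpr, TMM factors, 10 group means with sex as covariate and the robust quasi-likelihood F test, two-sided, with Benjamini-Hochberg adjustment over all genes tested and a threshold of 0.05. The residual degrees of freedom were 12, and the coefficient of biological variation was 28.6% (11 and 26.6% without Cpa3+/+ day 1 replicate 2). Log2 fold changes are Cpa3Cre/+ over Cpa3+/+, and their SE was taken from the F statistic. An unadjusted p under 0.05 is given as a count and is not a call. The contrast against the other 4 states used the same fit. The script was tested on simulated data. DESeq2 1.42.0 and the other alternatives named in the closing section were run on the same counts.

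The comparison, the 46 gene lists (622 genes) and the rule for named genes were chosen with earlier results of these data known. The rule took 5 mast cell genes, genes called by either tool, the 10 smallest p-values per direction on day 1 with and without Cpa3+/+ replicate 2, 5 per direction in the contrast against other states, and up to 4 genes per list by p, without predicted genes, receptor segments (unless called) and Y-linked genes. For the smallest p-values on day 1 and in the contrast, the rule required a mean of at least 1 CPM in a compared group. It also required day 1 groups that did not overlap in the libraries used. Not every gene it took is described, and some are not reported here, although they count in their lists. Pla2g2a, Iglc3, Il33, Igkv4-53, the promoters and the motifs were chosen after values were seen.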

Additional observations from a re-analysis of the deposited data

Results flagged for a closer look

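For 4 genes, DESeq2 found the genotype difference on day 1 to differ from the mean genotype difference in the other 4 states, whereas edgeR gave each an adjusted p of 0.616. The difference was lower by 4.09 on the log2 scale for Cemip (DESeq2 log2 value -4.09, SE 0.88, adjusted p = 0.022). It was higher by 3.21 for the heavy chain variable segment Ighv14-3 (SE 0.68, DESeq2 adjusted p = 0.0219), by 3.36 for Ighv8-11 (SE 0.71, DESeq2 adjusted p = 0.0219) and by 2.77 for Iglc3 (SE 0.62, DESeq2 adjusted p = 0.0327). On day 1, Ighv14-3 was at 38.7 and 29.4 CPM in Cpa3Cre/+ libraries, against 8.0003, 5.68 and 8.99 CPM in Cpa3+/+ libraries, and Ighv8-11 was at 5.09 and 4.70 CPM in Cpa3Cre/+ libraries, against 1.92, 0.745 and 1.14 CPM in Cpa3+/+ libraries. The groups did not overlap for either segment, with or without Cpa3+/+ replicate 2. None of the 4 was called by DESeq2 without that library.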

How the results depend on the processing

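edgeR called 0 genes on day 1, with and without Cpa3+/+ replicate 2, and 0 in the contrast against the other 4 states. Without the filter on low counts it called 233 and 86 genes on day 1 with and without that library, and 299 and 142 in the contrast, with the infinite median prior described above. DESeq2 called 3 on day 1 and 4 in the contrast. Fitted on the day 1 libraries alone without Cpa3+/+ replicate 2, edgeR called 2 (Igkv4-53 and Ighv14-3). Leaving out 1 library each gave 0 calls on day 1, and 0 to 1 in the contrast, the 1 without Cpa3Cre/+ naive replicate 1. The cause of these moves was not tested. DESeq2 size factors, no sex covariate and female libraries only gave 0 calls.

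The unadjusted counts rested on single libraries. They ran from 95 to 1570 higher and from 114 to 1501 lower over the leave-outs, lowest without Cpa3Cre/+ replicate 2 and highest without Cpa3Cre/+ replicate 1. Without Cpa3+/+ replicate 1 they were 924 and 1086. Same-numbered libraries did not consistently deviate together (correlations of 10 pairs from -0.32 to 0.44, 2 of them over 0.1). On day 1 the replicate 2 pair was 1 of those 2, at 0.14, and the replicate 1 pair was at -0.14. The 10 values are not independent, since with 2 libraries in both groups of a state its 2 pairs give the same value. With the replicate block edgeR called 0 genes, at 254 higher and 381 lower unadjusted. Of 97 genes followed, 95 kept their direction in every alternative. The log2 fold change of Kit turned to -0.031 with the replicate block. That of Ddit4 ran from -2.87 to 0.18 over the leave-outs, the 0.18 without Cpa3+/+ replicate 2. Of 46 list medians, 29 kept their sign in every alternative. With 2 and 3 libraries a group, and 1 Cpa3Cre/+ library where the other was left out (assumed to vary like the other groups), values of a single library weigh heavily.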

Other observations

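Few genes of the other groups passed the unadjusted threshold, as was the case for all genes. Over all genes, 3.65% were higher and 3.74% lower, and 2.61% and 1.14% without Cpa3+/+ replicate 2. Counts of 0 or 1 in lists of this size do not set them apart from these shares. The 18 T cell and intraepithelial lymphocyte genes had a median log2 fold change of -0.08 with 0 at an unadjusted p under 0.05 in either direction. All 6 tested eosinophil genes had positive fold changes (median 0.70), and 5 of 6 without Cpa3+/+ replicate 2 (median 0.59), with 0 at that threshold in either fit. Their groups did not overlap for 4 of the 6 in both fits, with Cpa3Cre/+ higher, where this held for 13.3% and 20.9% of all genes. They summed to 21.6 and 31.96 CPM in Cpa3Cre/+ libraries, against 20.4, 6.71 and 17.2 CPM in Cpa3+/+ libraries. All 15 enteric neuron and glia genes were positive (median 0.39), and 14 without Cpa3+/+ replicate 2 (median 0.55), but the groups overlapped for each. The median was -0.15 without Cpa3Cre/+ replicate 2. At an unadjusted p under 0.05, 1 of them was higher, the glial factor Sox10, and 0 without Cpa3+/+ replicate 2. The 28 interferon response genes had a median of -0.06, and -0.35 with 1 lower without Cpa3+/+ replicate 2. Cholesterol synthesis genes stood at 0.02 and -0.26 with 0 of 20 in both fits. The 13 tested tuft cell genes, which mark the epithelial cells that sense parasites, stood at 0.22 and 0.10 with 0.

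Red blood cell genes, whose 5 tested members were all highest in Cpa3+/+ replicate 2, summed to 99.4 and 151 CPM in Cpa3Cre/+ libraries, against 79.9, 316 and 51.0 CPM in Cpa3+/+ libraries. Their median was -0.22, and 0.95 without Cpa3+/+ replicate 2. Epithelial alarm and antimicrobial genes summed to 2348 and 999.6 CPM in Cpa3Cre/+ libraries, against 1142, 7207 and 1841 CPM in Cpa3+/+ libraries. The 13 mitochondrially encoded genes summed to 57561 and 49211 CPM in Cpa3Cre/+ libraries, against 65893, 95077 and 61629 CPM in Cpa3+/+ libraries, again highest in Cpa3+/+ replicate 2.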
